A study of Mus musculus with 12 samples.

Results

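The 10 genes described here belong to the Eph receptor and ephrin family. They are the EphA receptors Epha3, Epha4, Epha5 and Epha7, the EphB receptors Ephb1 and Ephb2, the ephrin-A ligands Efna2 and Efna5, and the ephrin-B ligands Efnb1 and Efnb2. They were taken by name from a table of read counts that holds 36255 genes, and all 10 passed the low-count filter in both fits used below. In the GENCODE M21 annotation of build GRCm38, Epha3 spans chr16:63543534-63864175, Epha4 chr1:77367185-77515088 and Epha5 chr5:84054761-84417382, all on the minus strand, and Epha7 spans chr4:28813131-28967499 on the plus strand. Ephb1 lies at chr9:101922128-102354693 and Ephb2 at chr4:136647539-136835988, both on the minus strand. Efna2 lies at chr10:80179482-80190010 (plus), Efna5 at chr17:62604184-62881317 (minus), Efnb1 at chrX:99136130-99148991 (plus) and Efnb2 at chr8:8617434-8661242 (minus). The other 12 genes of the family are described more briefly beside them.

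Eph receptors are receptor tyrosine kinases whose ligands, the ephrins, sit on the surface of neighbouring cells, so that signalling needs contact and can run into both cells. Ephrin-A ligands are held by a lipid anchor and bind mainly EphA receptors, while ephrin-B ligands span the membrane and bind mainly EphB receptors, with EphA4 able to bind both classes. In the early brain these pairs keep cell groups apart at compartment boundaries and later guide axons, and graded ephrin-A2 and ephrin-A5 in the midbrain are best known for ordering the axons that arrive from the retina.

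The study measured poly(A) RNA in mouse libraries whose tissue is given as embryo, while the text of the series speaks of embryonic stem cells or embryoid bodies. There were 2 wt libraries at 9.0 dpc (days post coitum), and all others were at 9.5 dpc: 2 labelled wt, 2 labelled wt PI, 2 labelled Skp1aKO, 2 labelled Skp1acont and 1 labelled Skp1acont PI. The protein of Skp1a links F-box proteins to the cullin in SCF ubiquitin ligases. No strain, allele, Cre driver or treatment is spelled out for any group, and "cont" and "PI" are used as written. The lot number in the titles is the replicate number, and nothing says that the libraries of a group are separate embryos, so every p-value here reflects library-to-library spread only, which may be technical.

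Total counts ran from 2320599 to 11607085 per library. Skp1a itself stood at 199 and 212 CPM (counts relative to the library total, with TMM scaling) in the Skp1aKO-labelled libraries, between the 303 and 104 CPM of Skp1acont, and at 930 to 1337 CPM in the 6 wt libraries, so its level did not separate the label Skp1aKO from Skp1acont. Genes that mark the midbrain and its border with the hindbrain, such as En1, En2, Otx2 and Pax5, summed to 245 to 509 CPM per library, and 7 hindbrain markers to 3.10 to 18.4 CPM. Skp1acont replicate 2 stood apart from the other libraries, with the lowest total count and the highest background. That background, the median over 1492 chemoreceptor genes, was 0.136 to 0.205 CPM per kb of exon in wt, 0.533 and 0.601 in the Skp1aKO-labelled libraries, 0.240 and 0.988 in Skp1acont and 0.256 in Skp1acont PI. The mean over the same genes, of which 15 held 32.1% to 51.6% of the sum in each library, was 0.793 to 1.32 CPM per kb in wt and 2.19 to 6.17 in the other libraries, so the background shares given below hold for the median rate only.

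The promoters of the 4 EphA receptor genes are shown because these genes rose and fell together in wt. Each line gives the 250 bases before the RefSeq transcript start (mouse build GRCm38.p6), 5′ to 3′ on the strand of the gene, with every CG pair in capitals. The stretches are chr16:63864176-63864425 on the minus strand for Epha3, chr1:77515089-77515338 on the minus strand for Epha4, chr5:84417383-84417632 on the minus strand for Epha5 and chr4:28812881-28813130 on the plus strand for the first of the 2 listed starts of Epha7.
Epha3: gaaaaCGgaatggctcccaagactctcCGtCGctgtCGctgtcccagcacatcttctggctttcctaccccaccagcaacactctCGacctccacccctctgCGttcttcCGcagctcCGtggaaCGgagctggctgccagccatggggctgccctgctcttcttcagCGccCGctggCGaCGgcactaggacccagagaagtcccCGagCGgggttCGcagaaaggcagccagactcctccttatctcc
Epha4: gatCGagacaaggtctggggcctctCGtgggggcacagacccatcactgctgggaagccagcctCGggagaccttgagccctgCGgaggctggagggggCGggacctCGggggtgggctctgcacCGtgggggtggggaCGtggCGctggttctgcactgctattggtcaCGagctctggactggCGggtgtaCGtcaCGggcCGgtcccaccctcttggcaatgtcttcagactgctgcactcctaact
Epha5: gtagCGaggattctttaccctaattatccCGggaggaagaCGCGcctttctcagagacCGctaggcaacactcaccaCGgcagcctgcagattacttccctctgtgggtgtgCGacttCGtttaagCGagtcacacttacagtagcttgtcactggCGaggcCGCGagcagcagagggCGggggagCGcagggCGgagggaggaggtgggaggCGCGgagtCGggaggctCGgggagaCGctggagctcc
Epha7: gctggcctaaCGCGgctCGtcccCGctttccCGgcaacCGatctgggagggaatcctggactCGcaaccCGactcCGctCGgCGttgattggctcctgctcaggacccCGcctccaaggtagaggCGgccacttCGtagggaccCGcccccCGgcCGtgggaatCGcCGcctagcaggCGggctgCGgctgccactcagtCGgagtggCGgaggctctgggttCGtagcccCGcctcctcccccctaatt
These stretches held 16, 14, 20 and 25 CG pairs in the order printed, against a median of 6 over 32851 mouse promoters of the same length. Their GC content was 62.8%, 66.0%, 62.4% and 69.2%, against a median of 52.4%. All 10 genes had a promoter in the RefSeq table, and Ephb1 held the fewest CG pairs (10) and Efna5 the most (32). A core of homeodomain sites, an E-box and a GC box were searched on both strands. Among the 4 EphA promoters the homeodomain core, TAATTA, was found once, in Epha5, and occurs in 4.84% of all promoters. The E-box CAGCTG was in none of the 4 and occurs in 13% of all promoters. The GC box GGGCGG was found in Epha4 (1 match), Epha5 (2 matches) and Epha7 (1 match) and occurs in 32.7% of all promoters.

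Ephrin-A transcripts led the family in every group. Per kb of exon, Efna5 was the highest in wt at 9.5 dpc (51.7 ± 4.34 CPM per kb, mean ± SD, n = 2), followed by Efna2 (41.7 ± 1.44). Epha7 (10.5 ± 0.570) and Efnb2 (10.2 ± 1.20) came next and did not differ beyond their spread. Epha4 followed at 5.63 ± 0.222, then Efnb1 at 3.18 ± 0.617 and Epha5 at 2.25 ± 0.0683 CPM per kb. Ephb1 (1.41 ± 0.217), Ephb2 (1.28 ± 0.127) and Epha3 (1.20 ± 0.377) were lowest and lay within 1 SD of each other. With the longest transcript as the length, Epha5 (5.15 CPM per kb) passed Efnb1 (3.37), and Epha3 (1.84) passed Ephb2 (1.48). The order differed at 9.0 dpc, where Efna5 (33.6 ± 2.85) led, Efna2 (14.5 ± 0.0488) and Efnb2 (14.4 ± 0.424) were level, and Epha5 was the last of the 10 at 0.269 ± 0.0596 CPM per kb. There the longest transcript put Efnb2 (20.6) above Efna2 (14.5) and Epha3 (0.485) last, below Epha5 (0.616). In the Skp1aKO-labelled libraries, Efna2 (40.7 ± 2.85) stood above Efna5 (22.6 ± 0.415), and Efnb1 came after them at 8.72 ± 0.208 CPM per kb.

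**Figure D1:**
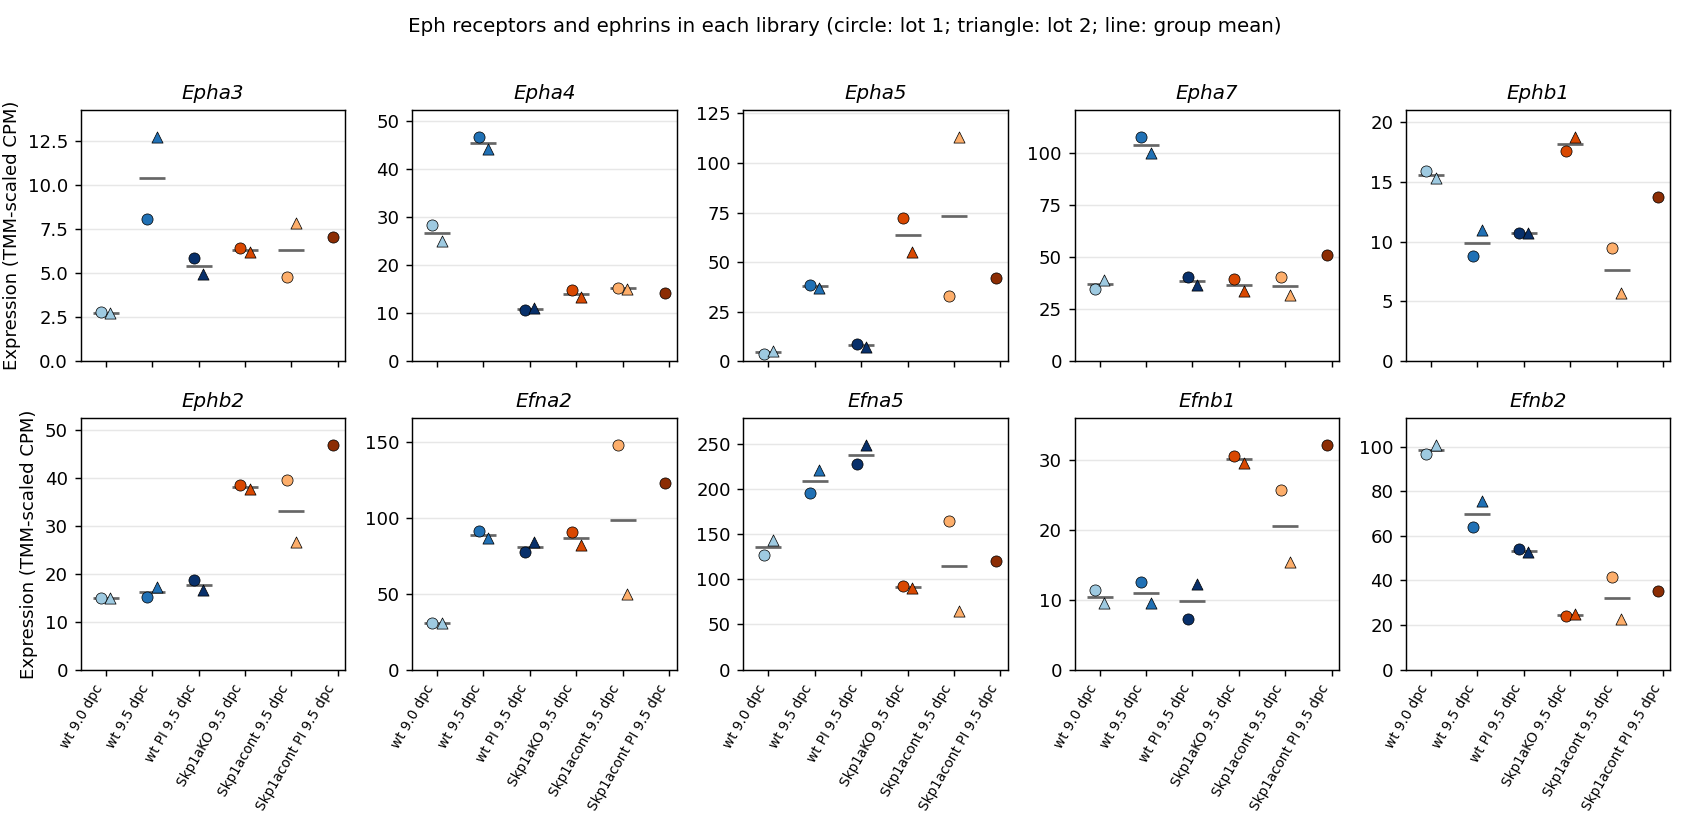
Expression of the 10 genes in each library, as TMM-scaled CPM on a linear axis from 0, for the 6 groups on the x axis. Circles are lot 1, triangles lot 2 and lines group means. Epha4 and Epha7 peak in wt at 9.5 dpc, and Ephb2 and Efnb1 are higher in the 5 Skp1a-labelled libraries than in the 6 wt libraries.

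The 3 wt groups ask how the family changed from 9.0 to 9.5 dpc and with the PI label. All 4 EphA receptors rose between 9.0 and 9.5 dpc, and all 4 were lower in wt PI at 9.5 dpc than in wt at the same age. For Epha3 the wt PI call depended on the settings. Epha5, an ephrin-A receptor best known from neurons, changed most, by 8.10-fold upward with age. The ephrin-A ligands Efna2 and Efna5 also rose with age but were not called lower in wt PI, and the ephrin-B ligand Efnb2 fell in both steps. Ephb2 and Efnb1 were called in none of the 3 wt comparisons.

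Epha3, an EphA receptor with a high affinity for ephrin-A5, stood at 2.77 and 2.73 CPM at 9.0 dpc, at 8.08 and 12.7 CPM at 9.5 dpc and, with the PI label, at 5.86 and 4.95 CPM. These values rest on 8 to 94 reads per library. Epha3 rose from 9.0 to 9.5 dpc (log2 fold change 1.99 ± 0.30 SE, edgeR quasi-likelihood test, adjusted p = 0.000972) and was lower in wt PI than in wt at 9.5 dpc (-1.02 ± 0.27, adjusted p = 0.0206). The wt PI call was lost with DESeq2 (adjusted p = 0.171) and in the fit of all groups (0.479). Expected background made up 42.8% and 46.8% of the Epha3 level at 9.0 dpc and 23.5% and 36.0% in wt PI. Epha4, the receptor that takes both ephrin classes, stood at 28.4 and 25.01 CPM at 9.0 dpc, at 46.6 and 44.1 CPM at 9.5 dpc and, with the PI label, at 10.7 and 10.97 CPM. The wt PI libraries were the lowest of the 6 for this gene, below even the earlier stage. Epha4 rose with age by 0.80 ± 0.14 (adjusted p = 0.00196), was lower in wt PI than in wt at 9.5 dpc by -2.07 ± 0.15 (adjusted p = 5.62e-05), and was lower in wt PI than at 9.0 dpc by -1.26 ± 0.15 on the log2 scale (adjusted p = 0.00079).

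Epha5 stood at 3.81 and 5.22 CPM at 9.0 dpc, at 38.5 and 36.9 CPM at 9.5 dpc and, with the PI label, at 8.96 and 7.42 CPM. The 2 wt libraries of 9.5 dpc without PI stood far above the other 4. The rise with age was 3.02 ± 0.19 (adjusted p = 6.39e-06), the difference of wt PI from wt at 9.5 dpc was -2.24 ± 0.18 (adjusted p = 9.42e-05), and wt PI was above 9.0 dpc by 0.78 ± 0.21 (adjusted p = 0.0326). That last call was lost when any 1 of its 4 libraries was left out (adjusted p from 0.0827 to 0.149), with DESeq2 (0.232), without robust estimates (0.054) and in the fit of all groups (0.926). Expected background made up 59.9% and 47.1% of the Epha5 level at 9.0 dpc and 29.6% and 46.2% in wt PI, against 5.90% and 6.73% in wt at 9.5 dpc. Epha7, an ephrin-A receptor of the early neural tube, stood at 34.9 and 39.2 CPM at 9.0 dpc, at 108 and 99.96 CPM at 9.5 dpc and, with the PI label, at 40.3 and 36.8 CPM. The wt PI values thus overlapped those of 9.0 dpc. Epha7 rose with age by 1.51 ± 0.12 (adjusted p = 2.34e-05), was lower in wt PI than in wt at 9.5 dpc by -1.44 ± 0.12 (adjusted p = 0.000107), and differed between wt PI and 9.0 dpc by 0.07 ± 0.12 (adjusted p = 0.978).

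Among the EphB receptors, Ephb1 stood at 15.9 and 15.3 CPM at 9.0 dpc, at 8.81 and 10.96 CPM at 9.5 dpc and, with the PI label, at 10.7 and 10.8 CPM. The 2 libraries of 9.0 dpc were the highest. Ephb1 fell with age by 0.60 ± 0.17 on the log2 scale (adjusted p = 0.0272), and the difference between wt PI and 9.5 dpc was 0.08 ± 0.18 (adjusted p = 0.87). The fall was called in 5 of 12 alternatives, and it was not called when either library of 9.0 dpc or replicate 1 of 9.5 dpc was left out. Ephb2, the EphB receptor best known from axon crossing at the midline, stood at 14.9 and 14.9 CPM at 9.0 dpc, at 15.05 and 17.3 CPM at 9.5 dpc and, with the PI label, at 18.6 and 16.7 CPM. These 6 values span a narrow range. The Ephb2 difference was 0.16 ± 0.15 with age (adjusted p = 0.476), 0.09 ± 0.15 between wt PI and wt at 9.5 dpc (adjusted p = 0.873) and 0.25 ± 0.15 between wt PI and 9.0 dpc (adjusted p = 0.3).

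Efna2, which encodes ephrin-A2, stood at 30.8 and 30.9 CPM at 9.0 dpc, at 91.0 and 86.7 CPM at 9.5 dpc and, with the PI label, at 77.6 and 84.0 CPM. Both 9.5 dpc groups were above both libraries of 9.0 dpc. Efna2 rose with age by 1.56 ± 0.11 (adjusted p = 1.31e-05) and was higher in wt PI than at 9.0 dpc by 1.41 ± 0.11 (adjusted p = 9.71e-05), while wt PI and wt at 9.5 dpc differed by -0.14 ± 0.10 (adjusted p = 0.364). Efna5, which encodes ephrin-A5, stood at 127 and 144 CPM at 9.0 dpc, at 196 and 221 CPM at 9.5 dpc and, with the PI label, at 228 and 248 CPM. The wt PI libraries were the highest of all 11 for this ligand under TMM scaling, while with library totals Skp1acont replicate 1 (206 CPM) passed wt PI replicate 1 (182 CPM). Efna5 rose with age by 0.65 ± 0.10 (adjusted p = 0.00143) and was higher in wt PI than at 9.0 dpc by 0.84 ± 0.10 (adjusted p = 0.00117), and the difference between wt PI and wt at 9.5 dpc was 0.18 ± 0.10 (adjusted p = 0.221).

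Efnb1, which encodes the X-linked ephrin-B1, stood at 11.4 and 9.48 CPM at 9.0 dpc, at 12.5 and 9.47 CPM at 9.5 dpc and, with the PI label, at 7.24 and 12.3 CPM. The 3 groups overlapped. The log2 differences were within 0.09 of 0 in the 3 comparisons, with SEs of 0.27 to 0.28 (adjusted p from 0.865 to 0.971). Efnb2, which encodes ephrin-B2, a ligand of arteries and neural tube, stood at 96.5 and 101 CPM at 9.0 dpc, at 63.9 and 75.5 CPM at 9.5 dpc and, with the PI label, at 54.1 and 52.6 CPM. The values step down from group to group. Efnb2 fell with age by 0.47 ± 0.10 on the log2 scale (adjusted p = 0.00768), was lower in wt PI than in wt at 9.5 dpc by -0.40 ± 0.11 (adjusted p = 0.0197), and was lower in wt PI than at 9.0 dpc by -0.86 ± 0.10 (adjusted p = 0.001). The fall with age was not called with library totals (adjusted p = 0.051), without wt replicate 2 of 9.0 dpc (0.0663), without wt replicate 1 of 9.5 dpc (0.0629) or in the fit of all groups (0.643).

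**Figure D2:**
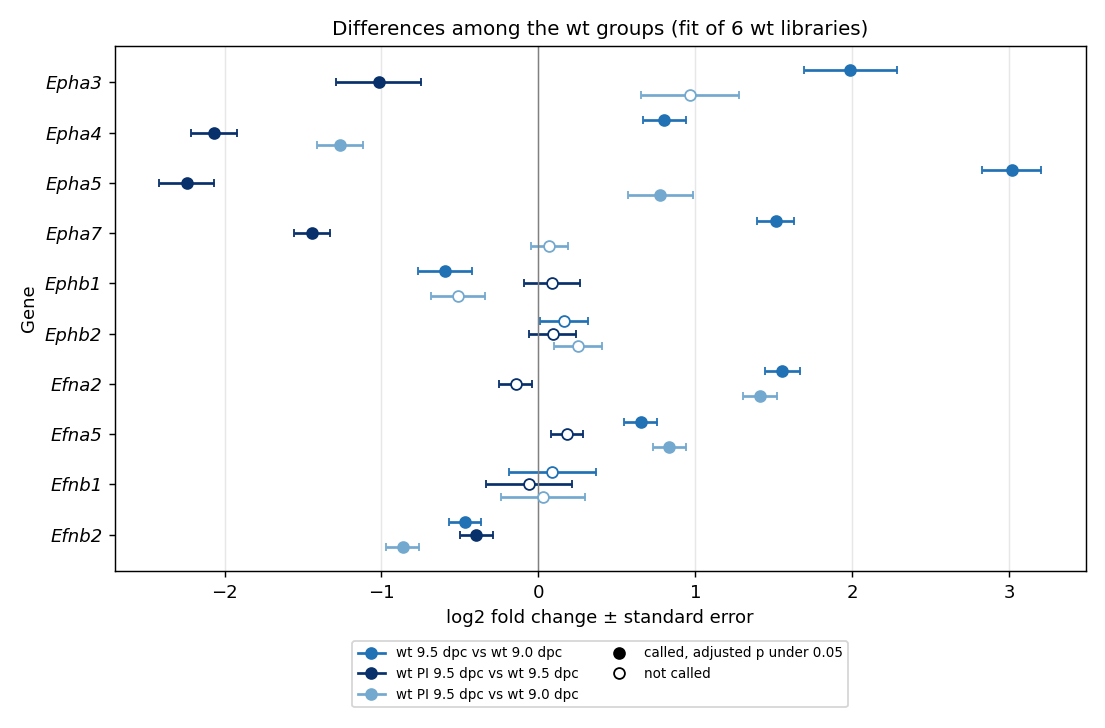
Log2 fold changes (x axis) with standard errors for the 10 genes (y axis) in the 3 comparisons among wt groups, from the fit of the 6 wt libraries. Filled points were called at an adjusted p under 0.05 and open points were not. The 4 EphA receptors lie to the right of 0 with age and to the left of 0 for wt PI against wt at 9.5 dpc, while Efna2 and Efna5 lie to the right with age and near 0 for wt PI.

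With age, 8 of the 10 genes were called, against 31.7% of the 13126 genes tested, and the 6 that rose and 2 that fell stand against 15% called higher and 16.7% called lower. The median log2 fold change was 0.73 over the 10 genes and -0.02 over all genes. In wt PI against wt at 9.5 dpc, 5 of 10 were called, all lower, against 28% of all genes called, 15.6% higher and 12.4% lower, and the medians were -0.27 and 0.01. In wt PI against 9.0 dpc, 5 of 10 were called, 3 higher and 2 lower, against 15.6% of all genes, 8.6% higher and 6.99% lower. With the lot as a replicate block this last count was 7, with Epha3 (log2 fold change 0.95, adjusted p = 0.0276) and Ephb1 (-0.50, adjusted p = 0.0302) added, which without the block stood at 0.97 ± 0.31 (adjusted p = 0.0644) and -0.51 ± 0.17 (adjusted p = 0.074). These comparisons share libraries, so their calls do not stand apart from each other. Each of the 8 changes with age went the same way in both lots. In a fit of all 11 libraries, where the biological coefficient of variation was 35.4% instead of 19.6%, the calls with age came down to Epha3, Epha5 and Epha7, the calls in wt PI against 9.5 dpc to Epha4, and those in wt PI against 9.0 dpc to 0 of 10. That fit called 302, 13 and 2 of all genes in these comparisons. Leaving out a single wt library left 6 to 8 calls with age, 4 in wt PI against 9.0 dpc and 3 to 5 in wt PI against 9.5 dpc, where Epha3 and Efnb2 were not called without wt replicate 2 or without either wt PI library.

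Summed markers of young neurons, of neural progenitors and of mesenchyme were all highest in wt at 9.5 dpc among the wt groups, as were the EphA receptors. The 9 neuron markers, Tubb3 and Elavl3 among them, summed to 99.3 to 110 CPM at 9.0 dpc, where Nhlh1 was at 0, to 674 to 761 CPM at 9.5 dpc and to 283 to 285 CPM in wt PI. All 9 rose with age, and 7 were lower in wt PI than in wt at 9.5 dpc. The 8 progenitor markers, such as Sox2, Nes and Fabp7, summed to 521 to 529, 1798 to 1977 and 716 to 744 CPM, with 6 called higher with age and 6 called lower in wt PI. Mesenchyme markers (9 genes) summed to 270 to 297, 517 to 584 and 337 to 370 CPM, and 7 epithelial markers to 235 to 250, 34.1 to 45.6 and 51.2 to 61.4 CPM. The 8 erythroid markers, globins among them, summed to 8303 to 8425, 15549 to 21144 and 7658 to 10065 CPM. They too were highest in wt at 9.5 dpc, but wt PI overlapped 9.0 dpc. Of these 8, 3 were called higher with age and 3 lower in wt PI. Of the 10 midbrain and isthmus markers tested in wt, 4 rose and 5 fell with age, and 6 were higher and 3 lower in wt PI than in wt at 9.5 dpc. Among all genes, 15% were called higher and 16.7% lower with age. In wt PI against wt at 9.5 dpc the shares were 15.6% and 12.4%. En1, Pax5, Pax8, Gbx2 and Lmx1b moved against the EphA receptors in both comparisons, for example En1 at -0.93 ± 0.12 (adjusted p = 0.000456) and 1.28 ± 0.12 (adjusted p = 0.000198). In bulk RNA, fewer cells of a type and less RNA per cell cannot be told apart, and the part of these cell types in the changes of the EphA genes was not tested. Endothelial markers (8 genes), listed because Efnb2 marks arteries, summed to 190 to 499 CPM at 9.0 dpc, 188 to 476.5 CPM at 9.5 dpc and 200.4 to 496 CPM in wt PI, and Kdr was the only one of them called with age (0.57 ± 0.12, adjusted p = 0.00676) and Tie1 the only one called in wt PI against wt at 9.5 dpc (2.11 ± 0.50, adjusted p = 0.0123).

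Setting the Skp1aKO-labelled libraries against Skp1acont asks how these labels differ at 9.5 dpc. None of the 10 genes was called by edgeR, against 0% of 18837 genes, with 1308 genes at an unadjusted p under 0.05. DESeq2 also called none of the 10, and 96 of all genes. Ephb1 had the smallest p-value of the 10, with 17.6 and 18.8 CPM in the Skp1aKO-labelled libraries against 9.501 and 5.74 CPM in Skp1acont (log2 fold change 1.23 ± 0.30, adjusted p = 0.352). Background stood for 17.7% and 121% of the Ephb1 level in Skp1acont. The other 9 log2 differences ran from -0.40 ± 0.33 for Efnb2 to 0.54 ± 0.33 for Efnb1. Several of them hung on which Skp1acont library was used. Epha5 had 33.1 and 113 CPM in the Skp1acont libraries and 72.1 and 55.0 CPM in those labelled Skp1aKO, so that it was called higher without Skp1acont replicate 2 (0.96, adjusted p = 0.0048) and lower without replicate 1 (-0.85, adjusted p = 0.00297). Efna2 had 148 and 49.8 CPM in Skp1acont against 91.0 and 82.4 CPM, and its log2 difference was -0.75 without replicate 2 (adjusted p = 0.00785) and 0.78 without replicate 1 (adjusted p = 0.00151). Efna5 had 164 and 64.9 CPM against 92.5 and 90.1 CPM and changed sign in the same manner, from -0.83 (adjusted p = 0.00545) to 0.47 (adjusted p = 0.0328). Either omission brought calls among all genes as well as among the 10. Each left a single Skp1acont library whose spread was taken from the other groups.

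The comparisons of the Skp1a-labelled groups with wt at 9.5 dpc ask how far each stands from wild type. Epha4, Epha7 and Efnb2 were lower and Ephb2 was higher than in wt at 9.5 dpc, both in the Skp1aKO-labelled libraries and in Skp1acont. Efnb1 and Ephb1 were called higher in the Skp1aKO-labelled libraries. Neither was called in Skp1acont, where the call of Efnb1 depended on the settings, and the difference between those 2 groups was not called for either gene. Without Skp1acont replicate 1 the log2 difference between Skp1aKO and Skp1acont was 0.95 for Efnb1 and 1.64 for Ephb1. Without replicate 2 it was 0.25 and 0.95. Each omission left 1 Skp1acont library, and calls then rose among all genes as well, so no call from these fits is read. The comparisons of Skp1aKO and of Skp1acont with wt use the same wt libraries and so share part of their error. In the Skp1aKO-labelled libraries 6 of 10 genes were called, 3 higher and 3 lower, against 36.4% of all genes called, 17.6% higher and 18.7% lower. In Skp1acont 4 of 10 were called, 1 higher and 3 lower, against 36.4% of all genes, 19.3% higher and 17.1% lower, so that this share lay near the background.

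Epha4 stood at 14.8 and 13.2 CPM in the Skp1aKO-labelled and at 15.2 and 15.1 CPM in the Skp1acont libraries. All 4 values lay below the 44.1 and 46.6 CPM of wt at 9.5 dpc and above the wt PI libraries, though after subtraction of background the Skp1acont and Skp1aKO-labelled libraries (7.14 to 13.3 CPM) overlapped wt PI (9.32 and 9.41 CPM). The log2 fold change was -1.69 ± 0.24 (adjusted p = 0.00364) and -1.58 ± 0.24 (adjusted p = 0.00729). Epha7 stood at 39.4 and 34.0 CPM in the Skp1aKO-labelled and at 40.7 and 32.0 CPM in the Skp1acont libraries, close to its level at 9.0 dpc and well below wt at 9.5 dpc. Its log2 fold change was -1.50 ± 0.27 (adjusted p = 0.00665) and -1.51 ± 0.28 (adjusted p = 0.00876). With library totals in place of TMM scaling these 4 differences shrank to -0.89 and -0.84 for Epha4 and -0.70 and -0.78 for Epha7, all still called. Epha3 had 6.42 and 6.18 CPM against 4.75 and 7.85 CPM in Skp1acont, and background made up 72.1% and 84.4% of it in the Skp1aKO-labelled libraries and 43.9% and 109% in Skp1acont. Its log2 fold changes against wt were -0.75 ± 0.37 (adjusted p = 0.123, with the log2 value at 0.06 under library totals) and -0.77 ± 0.37 (adjusted p = 0.117). Epha5 was not called against wt, with log2 differences of 0.75 ± 0.48 (adjusted p = 0.216) and 0.95 ± 0.48 (adjusted p = 0.131). With library totals Epha5 was called higher in both, by 1.55 (adjusted p = 0.033) and 1.75 (adjusted p = 0.0223).

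Ephb2 had 38.5 and 37.5 CPM in the Skp1aKO-labelled libraries, 39.5 and 26.6 CPM in Skp1acont and 46.8 CPM in Skp1acont PI. Each of these 5 values was above the 14.9 to 18.6 CPM of the 6 wt libraries. Its log2 fold change against wt at 9.5 dpc was 1.22 ± 0.27 (adjusted p = 0.0119) and 1.03 ± 0.27 (adjusted p = 0.0211). Efnb1, a ligand of that receptor, had 30.6 and 29.6, 25.7 and 15.4, and 32.1 CPM in the same 3 groups. These values too were all above wt, where the highest was 12.5 CPM. Its log2 fold change was 1.47 ± 0.35 in the Skp1aKO-labelled libraries (adjusted p = 0.0146) and 0.93 ± 0.35 in Skp1acont (adjusted p = 0.059). In Skp1acont it was called with DESeq2 size factors (adjusted p = 0.0197), library totals (0.0072), DESeq2 (0.0183) and the 1 CPM filter (0.0215), and without Skp1acont replicate 2 (0.000408). Ephb2 and Efnb1 kept this order with library totals, where Epha5 joined them. Among all genes, 21.3% lay above wt in all 5 libraries under TMM scaling and 37.3% with library totals, so that 2 of 10 and 3 of 10 are near the background. With the background subtracted at the median rate, Skp1acont replicate 2 fell into the wt range. It stood at 14.1 CPM against 13.1 to 16.6 CPM for Ephb2 and at 11.99 CPM against 6.69 to 12.01 CPM for Efnb1. The other 4 Skp1a-labelled libraries stayed above wt, at 29.97 CPM or more for Ephb2 and 24.8 CPM or more for Efnb1. At the mean rate, Ephb2 lay below wt (-1.58 to 7.32 CPM) in the Skp1aKO-labelled libraries (-21.4 and -5.70 CPM) and in Skp1acont replicate 2 (-51.3 CPM). Skp1acont replicate 1 (11.97 CPM) and Skp1acont PI (12.8 CPM) stayed above it. Efnb1 stayed above wt (3.39 to 9.10 CPM) in the same 4 libraries at that rate, at 14.2 CPM or more.

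Ephb1 differed from wt at 9.5 dpc by 0.86 ± 0.29 in the Skp1aKO-labelled libraries (adjusted p = 0.0446, and adjusted p = 0.0545 with the lot as a replicate block) and by -0.37 ± 0.30 in Skp1acont (adjusted p = 0.335, with the log2 value at 0.35 under library totals). Efna2 differed by -0.04 ± 0.44 (adjusted p = 0.954) and 0.16 ± 0.44 (adjusted p = 0.784), and with library totals the first value turned to 0.77. Efna5 was at 65 to 164 CPM in these 4 libraries and at 196 and 221 CPM in wt at 9.5 dpc. The log2 differences of Efna5, -1.19 ± 0.44 (adjusted p = 0.0574) and -0.86 ± 0.44 (adjusted p = 0.135), were not called. Efnb2 had 24.2 and 24.7 CPM in the Skp1aKO-labelled libraries, 41.6 and 22.6 CPM in Skp1acont and 35.4 CPM in Skp1acont PI, all below the lowest wt library at 52.6 CPM. Its log2 fold change was -1.51 ± 0.33 (adjusted p = 0.0114) and -1.11 ± 0.33 (adjusted p = 0.0288). It was the only one of the 10 below wt in all 5 libraries, against 21.3% of all genes. Under library totals none of the 10 was, against 7.79% of all genes, and Efnb2 was called in neither comparison. The 8 endothelial markers summed to 650 to 1189 CPM in the Skp1aKO-labelled libraries and 664 to 1200 CPM in Skp1acont, with Tie1 higher and Tek lower in both. Neuron markers summed to 205 to 401 and 199 to 467 CPM, with 4 of 9 lower in each comparison, and progenitor markers to 511 to 529 and 241 to 632 CPM. Erythroid markers summed to 761 to 989 and 684 to 2450 CPM, against 15549 to 21144 CPM in wt at 9.5 dpc, with 5 of 8 lower in each comparison. Mesenchyme markers summed to 218 to 235 and 158 to 230 CPM, against 517 to 584 CPM, with 4 of 9 lower in each. Of the midbrain and isthmus markers, En1, Pax2, Pax5, Pax8, Fgf8 and Lmx1b were higher in the Skp1aKO-labelled libraries, and the rest were not called. In Skp1acont Pax2, Pax5, Fgf8 and Lmx1b were higher and Gbx2 was lower. Of the sparse hindbrain markers, Hoxb1 and Hoxb2 were higher in the Skp1aKO-labelled libraries and Egr2, Hoxb1 and Hoxb3 in Skp1acont. Of all genes, 17.6% were called higher and 18.7% lower in the Skp1aKO-labelled libraries, and 19.3% and 17.1% in Skp1acont. The part of these markers in the differences was not tested.

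**Figure D3:**
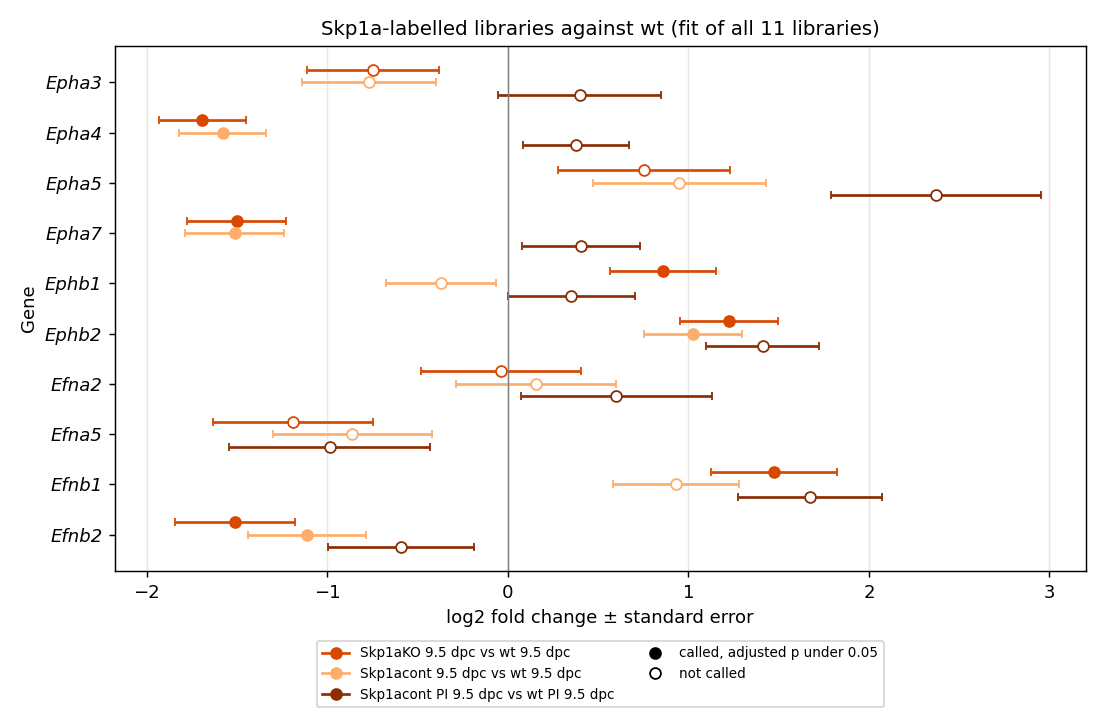
Log2 fold changes (x axis) with standard errors for the 10 genes (y axis) in 3 comparisons of Skp1a-labelled groups with wt, from the fit of all 11 libraries. Filled points were called at an adjusted p under 0.05. Epha4, Epha7 and Efnb2 are filled on the left in both 9.5 dpc comparisons and Ephb2 is filled on the right, while no point of the Skp1acont PI comparison is filled.

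Single libraries decided how many of these differences passed the test. Both for the Skp1aKO-labelled libraries and for Skp1acont, the count of the 10 genes called rose or fell with the library left out. The count of all genes called did so as well, so these counts are not read as a result about the 10 genes. Each of these fits left 1 library in a group.

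Skp1acont PI against wt PI compares 1 library with 2, and the spread of the lone library is taken from the other groups. None of the 10 genes was called, against 0.441% of all genes (83 genes), with 4635 genes at an unadjusted p under 0.05 and 1749 called by DESeq2. Epha5 stood at 42.1 CPM against 8.96 and 7.42 CPM, a log2 difference of 2.37 ± 0.58 (adjusted p = 0.0704). Ephb2 stood at 46.8 CPM against 18.6 and 16.7 CPM (1.41 ± 0.31, adjusted p = 0.0616) and Efnb1 at 32.1 CPM against 7.24 and 12.3 CPM (1.67 ± 0.40, adjusted p = 0.0659). DESeq2 called these 3 genes, all higher. When Skp1acont replicate 2 was left out, the log2 differences of Epha5, Ephb2 and Efnb1 were 2.51, 1.54 and 1.74. Calls rose in that fit for the 10 genes and for all genes alike, and it leaves 1 library in each Skp1acont group. Epha4, the one EphA receptor called lower in wt PI than at 9.0 dpc, stood at 14.1 CPM against 10.7 and 10.97 CPM (0.38 ± 0.29, adjusted p = 0.426).

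The PI label could also be compared within Skp1acont, against the same step in wt. Epha4 had 14.1 CPM in Skp1acont PI and 15.2 and 15.1 CPM in Skp1acont, where the wt PI libraries were 4.18-fold lower than wt. The difference between the 2 steps was 1.96 ± 0.37 on the log2 scale (unadjusted p = 0.000395 and adjusted p = 0.75 by edgeR). Epha7 had 51.1 CPM against 40.7 and 32.0 CPM, against a lower level with PI in wt, and the steps differed by 1.92 ± 0.42 (adjusted p = 0.77). None of the 10 genes was called for this difference by edgeR, as was none of all genes (0%), with 1198 genes at an unadjusted p under 0.05. DESeq2 called 5 genes, among them Epha7. Leaving out either Skp1acont library brought calls among the 10 genes, and among all genes as well. Either omission leaves the PI step in Skp1acont as 1 library against 1, with all spread taken from the other groups.

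The makeup of the family was compared within libraries, where no scaling enters. Of the summed CPM per kb of the 10 genes, the EphA receptors held 10.2% and 9.80% at 9.0 dpc, 15.7% and 14.7% in wt at 9.5 dpc and 5.89% and 5.03% in wt PI. Ephrin-A ligands held 61.8% and 63.8%, 72.1% and 72.6%, and 82.6% and 83.4% in the same groups. The ratio of all receptors to all ephrins was 0.174 and 0.164 at 9.0 dpc, 0.215 and 0.203 at 9.5 dpc and 0.0936 and 0.0798 in wt PI, so that wt PI had the fewest receptor transcripts per ephrin transcript among the wt groups. In the Skp1aKO-labelled libraries this ratio was 0.211 and 0.201, overlapping wt at 9.5 dpc, and it was 0.105 and 0.333 in Skp1acont and 0.156 in Skp1acont PI. The 3 ratios of 2 genes picked here separated all Skp1a-labelled from all wt libraries. The count ratio of Efna2 to Efna5 was 0.216 to 0.464 in wt and 0.767 to 1.02 in the Skp1a-labelled libraries. That of Efnb1 to Efnb2 was 0.0942 to 0.233 in wt and 0.616 to 1.27 in the others. The ratio of Epha5 to Epha7 was 0.109 to 0.369 in wt and 0.813 to 3.54 in the others, with the highest value in Skp1acont replicate 2. These 3 ratios were picked after their values were seen and carry no test. Under TMM scaling Efnb1 lay above and Efnb2 below wt in all 5 Skp1a-labelled libraries, so their ratio had to separate. Among all genes, 21.3% lay above and 21.3% below wt in this manner. How many other pairs of genes separate the libraries was not counted.

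**Figure D4:**
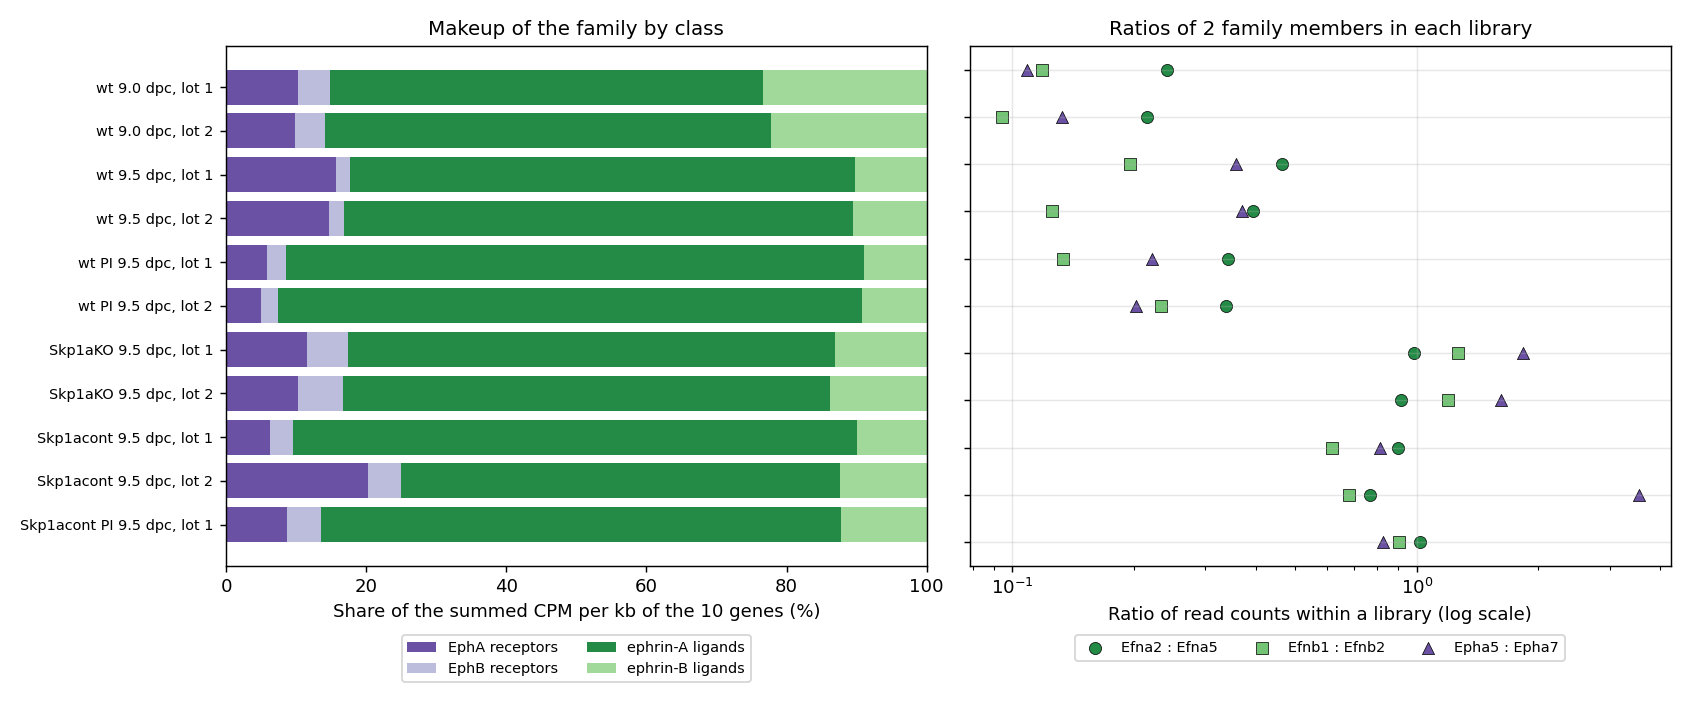
Left, share of each receptor and ligand class in the summed CPM per kb of the 10 genes, as bars that add to 100% for each of the 11 libraries. Right, count ratios of Efna2 to Efna5, Efnb1 to Efnb2 and Epha5 to Epha7 in the same libraries on a log axis. The EphA share is smallest in wt PI lot 2 (5.03%) and largest in Skp1acont lot 2 (20.3%), and all 3 ratios are higher in the 5 Skp1a-labelled libraries.

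How far each level stands above background differed by gene and library. Expected background, the median chemoreceptor rate times the exon length, was at most 6.14% of the level of Efna2 and Efna5 in all 11 libraries. It was above 40% of the Epha3 level in both libraries of 9.0 dpc, both labelled Skp1aKO and both of Skp1acont. For Epha4 it was 52.7% in Skp1acont replicate 2 and 29.1% and 36.5% in the Skp1aKO-labelled libraries, against 2.35% and 2.71% in wt at 9.5 dpc. After subtraction Epha4 stood at 7.14 to 13.3 CPM in the 5 Skp1a-labelled libraries and 42.9 and 45.5 CPM in wt at 9.5 dpc. With the mean rate the share in Skp1acont replicate 2 was 38.4% for Efna5 and 26.4% for Efna2, and over the 10 genes and 11 libraries expected background passed the whole level in 39 of 110 values, against 2 of 110 with the median rate.

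**Figure D5:**
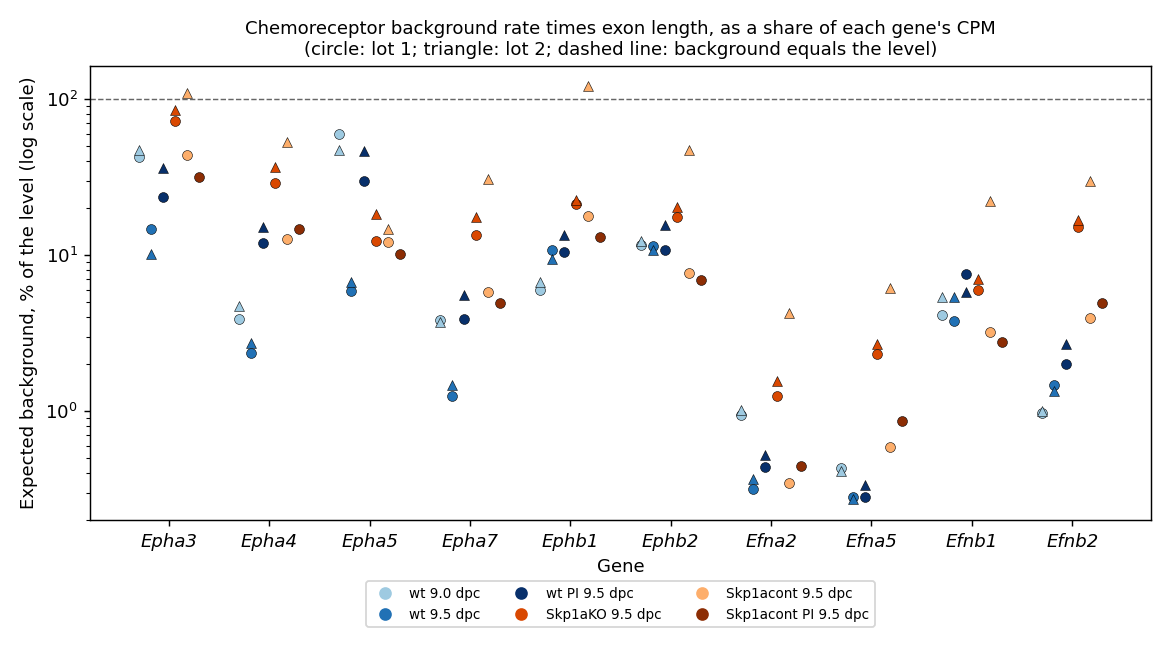
Expected background from the median chemoreceptor rate, as a percentage of each gene's CPM (y axis, log scale) in each library, for the 10 genes on the x axis. The dashed line marks 100%, where the whole level could be background, and Epha3 (109%) and Ephb1 (121%) pass it in Skp1acont replicate 2, while Efna2 and Efna5 stay at 6.14% or less.

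Of the other 12 family genes, 6 were tested in the wt fit and 12 in the fit of all libraries. With age Efnb3, the remaining ephrin-B ligand, rose (log2 fold change 0.55 ± 0.16, adjusted p = 0.0242) and Efna1 fell (-1.01 ± 0.34, adjusted p = 0.0487), against 31.7% of all genes called. None of the 6 was called in wt PI against wt at 9.5 dpc or against 9.0 dpc, where 28% and 15.6% of all genes were called. Ephb3, an EphB receptor, had 16.1 and 15.5 CPM in the Skp1aKO-labelled libraries, 10.1 and 17.5 CPM in Skp1acont and 16.6 CPM in Skp1acont PI, against 2.42 to 4.14 CPM in wt. It was higher than in wt at 9.5 dpc by 2.41 ± 0.39 (adjusted p = 0.00468) and 2.21 ± 0.39 (adjusted p = 0.00832). Epha10, a receptor with an inactive kinase, was higher in Skp1acont (2.25 ± 0.63, adjusted p = 0.0253), and so was Epha1 (3.10 ± 0.95, adjusted p = 0.0327), which rested on 7 and 22 reads there. In both comparisons with wt at 9.5 dpc 36.4% of all genes were called, so these calls are not read as a result about the family. Epha10 and Epha1 passed the low-count filter only in the fit that holds the Skp1a-labelled libraries, where background was also highest, and exons of Epha1 overlap those of Zyx on the opposite strand.

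Genes that act downstream of Eph receptors and ephrins were read from a list of 33, all tested. With age 3 rose and 4 fell, a share below that of all genes. The smallest adjusted p was that of Adam10, the protease that cuts ephrins at cell contacts (0.72 ± 0.11, adjusted p = 0.000886), followed by Kalrn, an exchange factor (0.82 ± 0.22, adjusted p = 0.0174), and Rhoa, the GTPase behind growth cone collapse (-0.36 ± 0.10, adjusted p = 0.0185). In wt PI against wt at 9.5 dpc 2 were higher and 5 lower, where 28% of all genes were called, with Rasa1 (-0.61 ± 0.10, adjusted p = 0.0023), Adam10 (-0.59 ± 0.11, adjusted p = 0.00303) and the phosphatase Ptpn11 (-0.69 ± 0.12, adjusted p = 0.00305) first. Rasa1, a Ras GTPase-activating protein bound by EphB receptors, was also the only one called in wt PI against 9.0 dpc (-0.48 ± 0.10, adjusted p = 0.0126). Against wt at 9.5 dpc, 4 were higher and 10 lower in the Skp1aKO-labelled libraries, against 36.4% of all genes called. Sdcbp, a PDZ scaffold that binds ephrin-B, led with -1.97 ± 0.36 (adjusted p = 0.0066), then the adaptor Nck1 (-1.81 ± 0.37, adjusted p = 0.00935) and Pick1, another PDZ protein (1.76 ± 0.39, adjusted p = 0.012). In Skp1acont 7 were higher and 11 lower, again against 36.4% of all genes, led by Nck1 (-2.04 ± 0.37, adjusted p = 0.00886), Sdcbp (-1.69 ± 0.36, adjusted p = 0.0114) and the kinase Yes1 (-1.30 ± 0.30, adjusted p = 0.014). None was called in the other 3 comparisons.

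Other axon guidance genes (26, of which 24 were tested in wt) moved with age as well, 8 higher and 5 lower, against 31.7% of all genes called. Dcc, a netrin receptor, rose by 2.16 ± 0.15 (adjusted p = 1.13e-05) and Unc5c, another, by 1.43 ± 0.13 (adjusted p = 6.18e-05), while Nrp2, a semaphorin receptor, fell by 1.72 ± 0.14 on the log2 scale (adjusted p = 2.83e-05). In wt PI against wt at 9.5 dpc 3 were higher and 7 lower, against 28% of all genes, with Robo2, a Slit receptor, at -1.28 ± 0.14 (adjusted p = 0.000326), Dcc at -1.27 ± 0.14 (adjusted p = 0.00033) and Sema3c at 1.05 ± 0.15 (adjusted p = 0.00101). In wt PI against 9.0 dpc, where 15.6% of all genes were called, 5 were higher and 1, Nrp2, lower (-1.53 ± 0.14, adjusted p = 0.00019), and among the higher ones were Slit2, a repellent ligand (0.89 ± 0.15, adjusted p = 0.00429), and Dcc (0.89 ± 0.15, adjusted p = 0.00453). Against wt at 9.5 dpc the Skp1aKO-labelled libraries had 4 higher and 4 lower, against 36.4% of all genes, among them the secreted Sema3f (2.33 ± 0.31, adjusted p = 0.00297), Ntn1 (1.36 ± 0.27, adjusted p = 0.00814) and Sema3a (-1.37 ± 0.29, adjusted p = 0.01). Skp1acont had 2 higher and 4 lower, against the same share of all genes, again with Sema3f (1.97 ± 0.31, adjusted p = 0.00729) and Sema3a (-1.53 ± 0.29, adjusted p = 0.00941) and with Slit1 (3.34 ± 0.79, adjusted p = 0.0156). Sema3f was the only one of the 26 called in Skp1acont PI against wt PI (2.25 ± 0.34, adjusted p = 0.0336).

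For the 8 members called in a wt comparison, the 2 genes with the most similar pattern over the 11 libraries were sought among 10969 genes. Likeness is the root mean square difference of log2(CPM + 1), each gene centred on its mean, so that 0 is an identical pattern. Epha5 was matched least closely in absolute terms, by Nckap5 (0.37) and Tmem178b (0.44), but its median distance to all genes was 1.77. Epha4 was nearest to Arrdc4 and Ctla2a (0.30 each), Epha3 to Tmem260 (0.22) and Kif5c (0.23), and Epha7 to Fmn2 (0.19) and Nuak1 (0.20). Efna2 was nearest to Hes6 and Mfng (0.22 each), and Efna5 to Antxr2 and Dhx32 (0.14 each). Ephb1 was nearest to Tuba1c and Phf13 (0.17 each) and Efnb2 to Klhdc2 (0.14) and Fam98a (0.16).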

How the data were processed

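The deposited values are whole-number read counts per gene, which the authors supplied without normalization for 11 libraries. Skp1acont PI replicate 2 was not analysed here. Trimming used Trim Galore 0.6.7 and the build was GRCm38 (mm10), per the submitters' processing notes. The sources used here do not give the aligner, counter or use of strand. Gm26846 overlaps exons of Ephb1 by 152 bp on the opposite strand, and whether reads of that stretch were told apart is therefore not known.

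Libraries were grouped by title. The test on counts was that of edgeR 4.0.16 under R 4.3.3 (TMM scaling, filterByExpr by group, robust quasi-likelihood F test, two-sided). Benjamini-Hochberg adjustment ran over all genes tested, and calls needed an adjusted p under 0.05. Standard errors are the log2 fold change divided by the square root of F. The wt comparisons used a fit of the 6 wt libraries (13126 genes), and the others a fit of all 11 (18837 genes). Printed CPM come from the latter fit. The model was tested on simulated counts. Exon lengths and positions came from GENCODE M21, with exons merged, and promoters from RefSeq. A level per kb was also computed with the longest transcript, which for Epha5 is 7328 bp against 16739 bp of merged exons.

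Libraries of the same lot deviated together in all 3 pairs of wt groups (r 0.297 to 0.343 across genes), and the labels do not say why. In wt, total counts were 3392251 to 4007663 in lot 1 and 9217568 to 11607085 in lot 2. A pairing of the wt libraries by lot thus cannot be told apart from depth. The printed values come from fits without a lot term, and the blocked value is given where it changes a call. In the 7 pairs with a Skp1a label r was -0.01 to 0.18.

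Alternatives were DESeq2 1.42.0, its size factors, library totals, other low-count filters, the lot as a block, no robust estimates, other sets of libraries in the fit, and each library left out in turn. Subtraction of the background rate (median or mean over chemoreceptor genes), and library totals without Skp1acont replicate 2, were chosen after seeing the data. The 10 genes and all gene lists were chosen with earlier results of these data known. Genes named beside the 10 are family genes called in a comparison, the 3 called genes of smallest adjusted p in the lists of downstream and of guidance genes, and the 2 genes of most similar pattern for each member called in wt, over genes of at least 5 CPM on average. Cell marker genes are named as examples of their lists.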

Additional observations from a re-analysis of the deposited data

How the results depend on the processing

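The wt calls depended most on which libraries set the spread. In a fit of all 6 groups the members called came to 3 with age, 1 for wt PI against wt at 9.5 dpc and 0 for wt PI against 9.0 dpc, against 8, 5 and 5, and all genes called came to 302, 13 and 2, against 4161, 3669 and 2046. DESeq2 called 2363, 2151 and 1086 genes there. With the lot as a replicate block the members called were 8, 5 and 7 in wt, with 3735 genes in the last comparison, and 0, 5, 4, 0 and 0 in the comparisons with Skp1a labels, in the order of the report. The block changed no member's call other than those of Epha3 and Ephb1 given above. Among log2 fold changes of members refitted under other settings, 536 kept direction and call, 34 gained a call, 29 lost one and 21 changed sign. With single libraries left out these numbers were 241, 32, 41 and 26.

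For Skp1acont against wt at 9.5 dpc, 2 members were called with no filter on low counts, against 4. For Skp1acont PI against wt PI, where none was called, 2 were called with DESeq2 size factors and 2 with a filter of at least 1 CPM, 3 with library totals and 3 with DESeq2, and 8 with library totals and no Skp1acont replicate 2. All genes called there rose from 83 to 610, 617, 1174, 1749 and 8233 in the same order, were 123 with no filter, 249 without robust estimates and 17 with the block, and 7347 without Skp1acont replicate 2. DESeq2 called 1 member for the difference between the PI steps. Over single libraries left out, the members called ran from 3 to 5 for wt PI against wt at 9.5 dpc, from 0 to 5 for Skp1aKO against Skp1acont, from 0 to 8 for Skp1aKO and from 0 to 8 for Skp1acont against wt at 9.5 dpc, from 0 to 6 for Skp1acont PI against wt PI, and from 0 to 9 for the difference between the PI steps. All genes called ran over the same omissions from 2503 to 3391 with age, 1289 to 3188 for wt PI against wt at 9.5 dpc and 320 to 1124 against 9.0 dpc. They ran from 0 to 5723 for Skp1aKO against Skp1acont, from 281 to 11548 for Skp1aKO and from 13 to 13512 for Skp1acont against wt (6852 and 6866 with every library), and from 0 to 6507 for the difference between the PI steps. For Skp1aKO against Skp1acont they were 0 to 96 under other settings. The cause of these differences was not tested.

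Library totals moved the median of all genes from 0.24 to 1.04 (log2) for Skp1aKO and from 0.34 to 1.08 for Skp1acont against wt at 9.5 dpc, and the share of calls that were higher from 48.5% to 83% and from 53% to 85.1%. That share went from 25.3% to 88.8% for Skp1acont PI, from 47.2% to 64% with age and from 55.2% to 78.4% for wt PI against 9.0 dpc.

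Signs turned only for members that were not called in the report. Efnb1 turned to -0.044 with DESeq2 and -0.0434 in the fit of all groups for wt PI against 9.0 dpc, and to 0.0681 with the replicate block for wt PI against wt at 9.5 dpc. For Skp1aKO against Skp1acont, Epha3 turned to -0.0544 with size factors, -0.0547 with DESeq2 and -0.0392 with the 1 CPM filter, and Epha7 to -0.0188, -0.0182 and -0.0118. For Skp1aKO against wt at 9.5 dpc, Efna2 turned to 0.199, 0.1992 and 0.1742 under the same 3 settings, to 0.7673 with library totals and to 0.7706 with library totals and no Skp1acont replicate 2, and Epha3 to 0.059 and 0.0302 under the last 2. These last 2 settings also turned Ephb1 to 0.3506 and 0.5526 for Skp1acont against wt and Efnb2 to 0.0151 and 0.0162 for Skp1acont PI against wt PI, and the second turned Efna5 to 0.3019 for Skp1acont against wt.

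With single libraries left out, the log2 fold change of Efnb1 ran from -0.0725 to 0.354 with age, from -0.5794 to 0.2066 for wt PI against wt at 9.5 dpc and from -0.4848 to 0.2826 for wt PI against 9.0 dpc. For wt PI, Ephb1 ran from -0.0476 to 0.2446 and Ephb2 from -0.005 to 0.1766 against wt at 9.5 dpc, and Epha7 from -0.0154 to 0.1513 against 9.0 dpc. For Skp1aKO against Skp1acont the ranges were -0.3357 to 0.4235 for Epha3, -0.8526 to 0.9608 for Epha5, -0.1302 to 0.1773 for Epha7, -0.0381 to 0.497 for Ephb2, -0.7527 to 0.7784 for Efna2, -0.8311 to 0.4714 for Efna5 and -0.7491 to 0.0909 for Efnb2. Against wt at 9.5 dpc, Efna2 ran from -0.1 to 0.1086 for Skp1aKO, and for Skp1acont Epha5 ran from -0.0641 to 1.6242, Ephb1 from -0.781 to 0.0258 and Efna2 from -0.7966 to 0.8613. For the difference between the PI steps, Efna2 ran from -0.1343 to 1.4093 and Efna5 from -0.6395 to 0.6719. Depth limits Epha3, with 8 reads in 1 wt library of 9.0 dpc, and Epha5, with 11.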

Other observations

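The balance among the EphA receptors also changed between the wt groups, read as ratios of counts within a library. Epha4 stood to Epha7 as 0.812 and 0.638 at 9.0 dpc, 0.432 and 0.441 in wt at 9.5 dpc and 0.265 and 0.298 in wt PI, so that the 3 wt groups did not overlap. In the 5 Skp1a-labelled libraries the ratio ran from 0.276 to 0.472 and overlapped both wt groups of 9.5 dpc. Summed over the 10 genes, transcripts per kb of exon came to 74.5 and 78.6 CPM per kb at 9.0 dpc, 127 and 131 in wt at 9.5 dpc and 112 and 121 in wt PI. The Skp1acont libraries lay at either end of all 11, at 137 and 62.9 CPM per kb. These values were looked at after the comparisons and carry no test.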
